A study of Mus musculus with 25 samples.

Results

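The sarcomeric myosin heavy chains are the motor proteins of the thick filament of striated muscle, and the 9 genes described here (*Myh1*, *Myh2*, *Myh3*, *Myh4*, *Myh6*, *Myh7*, *Myh7b*, *Myh8* and *Myh13*) were followed in the *soleus* RNA of mice with and without muscle DNMT3A, at rest and after running. They were taken by gene symbol from a table of 52636 genes, and all 9 had enough reads to be tested among 16340 genes. The groups were 5 rested WT, 7 rested mD3AKO, 7 exercised WT and 6 exercised mD3AKO mice, 13 male and 12 female in all, aged 12 weeks and on a C57BL/6 background. All mice carried *Dnmt3a* flox/flox alleles, and mD3AKO mice also carried Cre driven by the muscle creatine kinase promoter (mCK-Cre), which is active in skeletal muscle and heart and late in fiber formation, so that satellite cells and non-muscle cells are thought to keep the gene. Exercised mice ran on a treadmill for 30 minutes and were killed 60 minutes later, and rested mice were placed in a stationary treadmill for 30 minutes.

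Each muscle fiber is built mostly from a few of these motors, which set how fast it contracts and how much ATP it spends. *Myh7* encodes the slow type I chain, *Myh2*, *Myh1* and *Myh4* the fast IIa, IIx and IIb chains in order of rising speed, *Myh3* and *Myh8* the embryonic and perinatal chains that are replaced as fibers mature, *Myh6* the alpha chain of the heart, *Myh7b* an ancient slow chain and *Myh13* the superfast chain of eye and laryngeal muscle. The mouse *soleus* is a postural muscle made mainly of type I and IIa fibers. Of the genes, 6, *Myh3*, *Myh2*, *Myh1*, *Myh4*, *Myh8* and *Myh13* in that order, stand on the plus strand of chromosome 11 within 293 kb (chr11:67078300-67371586, mm10). *Myh6* and *Myh7* stand side by side on the minus strand of chromosome 14 within 52.7 kb (chr14:54941981-54994634), and *Myh7b* is on chromosome 2 (chr2:155611212-155634307).

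Libraries held 22671457 to 37431801 counts. *Dnmt3a* itself was at 116 ± 13.2 CPM in WT (SD, n = 12) and 40.9 ± 5.86 CPM in mD3AKO mice (n = 13), without overlap between the genotypes. CPM means counts scaled to a common library size by TMM, which evens out differences in library make-up. The 9 skeletal muscle markers together made up 90426 to 164844 CPM in the libraries, whereas 6 heart markers summed to 0.627 to 2.36 CPM. The library of mouse 15 (rested mD3AKO male) had the fewest counts and gave the lowest share of them to the family, 1.72% against 3.02% ± 0.355 over all 25. In a whole muscle, fewer fibers of a type and less RNA per fiber cannot be told apart. Each library came from a separate mouse by its label.

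*Myh8*, the perinatal chain, was the only member called for genotype. It was about 10 times higher in mD3AKO muscle, at rest and after running alike. None of the adult chains passed the test. In rested WT mice it was at 5.72, 5.96, 6.86, 10.9 and 18.0 CPM, and in rested mD3AKO mice it ran from 32.7 through a median of 72.1 to 221 CPM. After exercise, WT mice spanned 4.08 to 11.1 CPM (median 8.92) and mD3AKO mice 35.8 to 145 CPM (median 87.5). The lowest mD3AKO mouse was therefore 1.82 times the highest WT mouse, and the genotypes did not overlap. How many of all tested genes separate in this way was not counted. The fitted difference was a log2 fold change of 3.39 ± 0.33 (SE), or 10.5-fold, with an adjusted p of 7.1e-07 (quasi-likelihood test of edgeR, Benjamini-Hochberg adjusted over all tested genes). Of all tested genes 0.269% passed that test for genotype, and of the 9 members 1 did, the same count as with DESeq2.

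**Figure D1:**
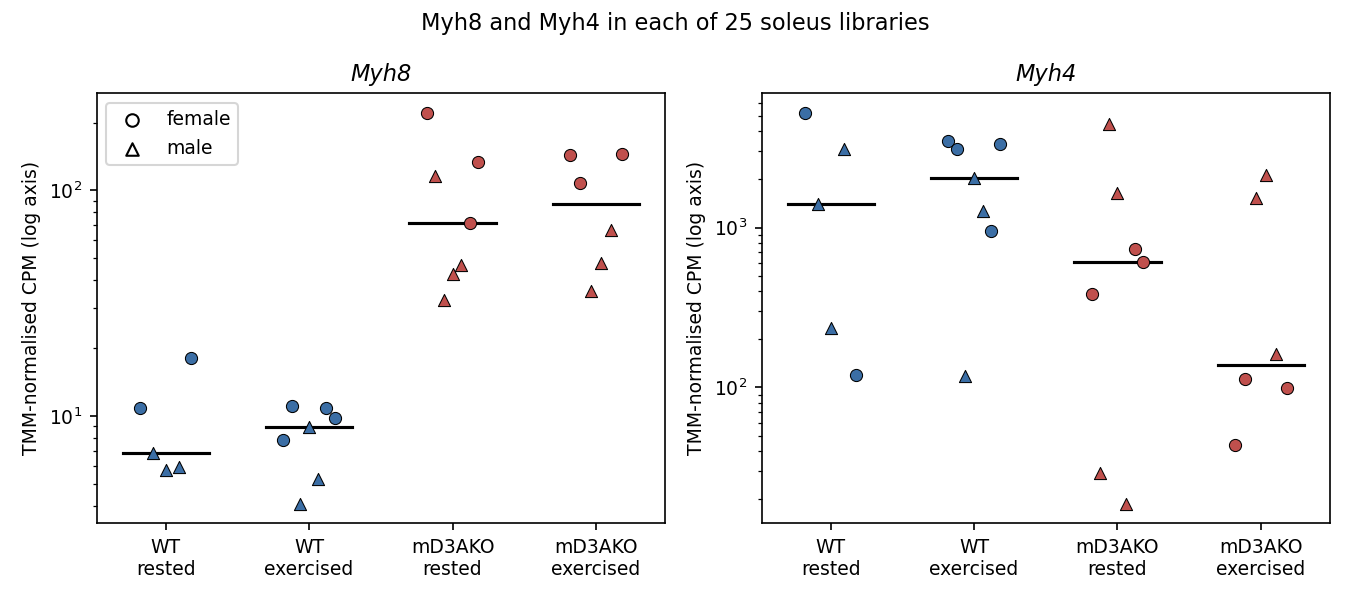
TMM-normalised CPM of *Myh8* (left) and *Myh4* (right) on log axes, 1 point per mouse in the 4 groups, circles for females and triangles for males, with the group median as a bar. All 13 mD3AKO mice lie above all 12 WT mice for *Myh8*, between 32.7 and 221 against 4.08 to 18.0 CPM, whereas *Myh4* runs from 18.7 to 5208 CPM with overlap between the genotypes.

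The contrast held within each state. At rest the log2 fold change of *Myh8* was 3.32 ± 0.49 (edgeR adjusted p = 0.00115) and it was again the only one of 9 members called, against 0.0918% of all genes. After the run it was 3.46 ± 0.43 (edgeR adjusted p = 6.7e-05), also the only member, against 0.11% of all genes. Both sexes showed it: fitted in males alone the log2 fold change was 3.15 ± 0.31 (edgeR adjusted p = 0.000499) and in females alone 3.52 ± 0.27 (edgeR adjusted p = 7.6e-05). Leaving out each library in turn moved the value only between 3.21 and 3.58.

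High relative to WT was still low next to the most abundant chains. On the scale of CPM per kilobase of exon, which divides by the annotated exon length, *Myh8* had a mean of 8.05 ± 5.72 (SD, n = 7) in rested and 7.75 ± 4.07 (n = 6) in exercised mD3AKO mice, and of 0.805 ± 0.441 (n = 5) and 0.701 ± 0.230 (n = 7) in the matching WT mice. *Myh2*, the most abundant chain on this scale, had a median of 1433 over all mice. The exon model of *Myh8* spans 11772 bases against 6016 to 8586 for the others, which lowers its values on this scale relative to theirs. As a share of all counts on the 9 genes, *Myh8* rose from 0.0289% ± 0.0131 (n = 12) in WT to 0.316% ± 0.184 (n = 13) in mD3AKO muscle. The difference of 0.286 percentage points, averaged over rest and exercise, had a permutation p of 4e-05 (2-sided, 100000 resamples of the genotype labels within each state) and 0.0004 after Benjamini-Hochberg adjustment over 10 share tests.

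**Figure D2:**
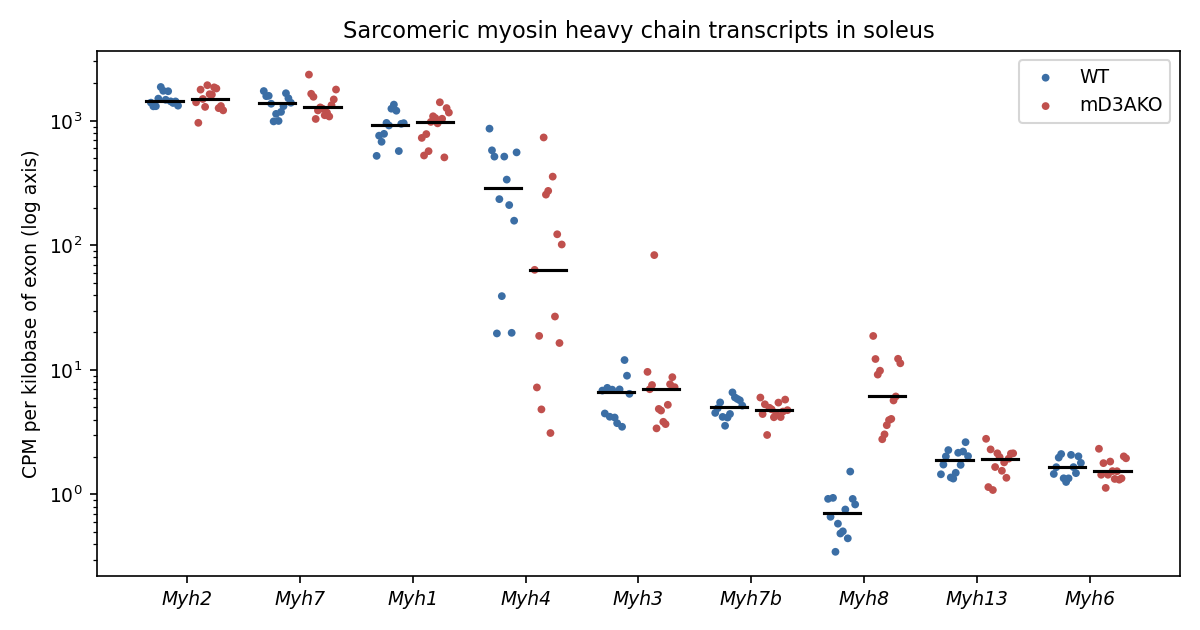
CPM per kilobase of exon on a log axis for each of the 9 genes, ordered by the median over all mice, 1 point per mouse with WT and mD3AKO side by side and medians as bars. *Myh8* is the only one of the 9 genes whose WT and mD3AKO points separate, which was not counted over all tested genes. At the top 3 adult chains sit together, and 1 mD3AKO mouse stands apart for *Myh3* at 83.6.

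The stretch just before the start of *Myh8* is shown because it shares runs of letters with its neighbours, which edgeR did not call for genotype. The sequences are RefSeq promoter windows on GRCm38.p6, plus strand, 5′ to 3′, and all 9 genes had one. Capitals mark runs that a search of the 250 bases before the start found unbroken in *Myh1*, *Myh2*, *Myh4* and *Myh8* (TTCTAATTATATCC and TCAAATTAT) or in *Myh1*, *Myh4* and *Myh8* (TCAAATTATTTATAG, which contains the shorter run).
Myh8, chr11:67277014-67277089: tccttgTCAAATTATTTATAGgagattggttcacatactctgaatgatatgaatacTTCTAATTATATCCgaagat
Myh4, chr11:67237619-67237673: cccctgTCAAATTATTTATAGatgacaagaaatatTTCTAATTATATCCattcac
Myh1, chr11:67199880-67199961: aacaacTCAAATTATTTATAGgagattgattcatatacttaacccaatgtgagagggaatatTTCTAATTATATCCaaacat
Myh2, chr11:67170848-67170921: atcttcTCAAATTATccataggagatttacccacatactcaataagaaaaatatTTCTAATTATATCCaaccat
In *Myh2* the longer run is broken after TCAAATTAT.

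The 14-base run TTCTAATTATATCC was found on either strand in 4 of 32851 promoter windows of 300 bases, 0.0122%, and these 4 windows were those of *Myh1*, *Myh2*, *Myh4* and *Myh8*. The 15-base run TCAAATTATTTATAG was found in 3 windows (0.00913%), and the shorter TCAAATTAT in 59 windows (0.18%). The run TCAAATTATTTATAG overlaps a match to the MEF2 consensus, a site of a muscle transcription factor family, which *Myh1*, *Myh4* and *Myh8* each held once and which 3.19% of all windows held on either strand. The 14-base run began 54 bases before the annotated start of *Myh8*, 160 before that of *Myh1*, 158 before that of *Myh4* and 125 before that of *Myh2*. CpG dinucleotides, the targets of DNMT3A, numbered 6 in the 250 bases upstream of *Myh8* and of *Myh2*, 4 in *Myh3*, 3 in *Myh1* and 1 in *Myh4*, against a median of 6 (quartiles 2 and 16) over all windows. The whole upstream window of *Myh8* (chr11:67276874-67277123) is printed because *Myh8* carries the genotype result, with the same capitals.
Myh8: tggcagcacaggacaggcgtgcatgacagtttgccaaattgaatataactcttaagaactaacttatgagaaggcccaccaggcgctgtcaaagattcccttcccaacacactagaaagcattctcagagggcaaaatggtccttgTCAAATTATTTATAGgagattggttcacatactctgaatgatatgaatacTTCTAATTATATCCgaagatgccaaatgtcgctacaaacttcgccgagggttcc
Starts are those of RefSeq. For *Myh8*, *Myh2* and *Myh3* they match the gene starts used in the count table, whereas for *Myh4* the RefSeq start (67237812) lies before the count table's (67238029) and for *Myh1* (67200102) after it (67200052). The RefSeq window of *Myh13* lies inside the counted gene, so its letters are not compared here.

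No neighbour of *Myh8* in the cluster was called for genotype. *Myh4*, which ends 16.7 kb before *Myh8* begins, had a genotype log2 fold change of -1.21 ± 0.75, and *Myh13*, which begins 13.0 kb after it, one of 0.03 ± 0.13; edgeR called neither. Within 50 kb of the chromosome 11 cluster 6 other genes were tested, with genotype log2 fold changes from -0.09 to 0.16, and edgeR called 0 of them. Around *Myh6* and *Myh7* the 6 other tested genes lay between -0.33 and 0.08, again with 0 called.

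The 4 adult chains made up 97.3% to 99.7% of the myosin heavy chain counts. Per kilobase of exon the order of the medians over all mice began with *Myh2* (1433), *Myh7* (1336), *Myh1* (955) and *Myh4* (158). Then came *Myh3* (6.83), *Myh7b* (4.83), *Myh8* (2.78), *Myh13* (1.94) and *Myh6* (1.54). The place of *Myh8* pools the genotypes, as its median was 0.71 in WT and 6.12 in mD3AKO mice. It also depends on the long exon model of *Myh8*. In mD3AKO mice the median of *Myh3* was 7.00 per kilobase, above that of *Myh8*, whereas in CPM *Myh8* was higher (72.1 against 42.4). *Myh2*, *Myh7* and *Myh1* overlapped, with ranges of 964 to 1932 for *Myh2*, 990 to 2350 for *Myh7* and 509 to 1409 for *Myh1*. Likewise *Myh13* (1.09 to 2.80) and *Myh6* (1.13 to 2.33) did not differ beyond their spread.

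*Myh7*, the slow chain, was at a mean of 11204 ± 3144 CPM in rested WT (SD, n = 5), 12363 ± 4024 in rested mD3AKO (n = 7), 12199 ± 1289 in exercised WT (n = 7) and 11766 ± 1956 in exercised mD3AKO mice (n = 6). Its genotype log2 fold change was 0.05 ± 0.13, with a 95% interval from -0.22 to 0.31. *Myh2*, the IIa chain, differed by 0.01 ± 0.10 (interval -0.20 to 0.21) and *Myh1*, the IIx chain, by 0.05 ± 0.17 (interval -0.31 to 0.41). The intervals are not adjusted for the number of genes and hold the differences compatible with these 12 WT and 13 mD3AKO mice. They are not the limit of what the adjusted test could call. In shares, *Myh7* took 38.9% ± 7.14 of the counts in WT and 40.6% ± 9.21 in mD3AKO muscle, *Myh2* 35.3% ± 5.22 and 36.2% ± 6.55, and *Myh1* 19.0% ± 5.23 and 19.5% ± 4.79. None of these share differences passed the permutation test (adjusted p = 0.984 for each).

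**Figure D3:**
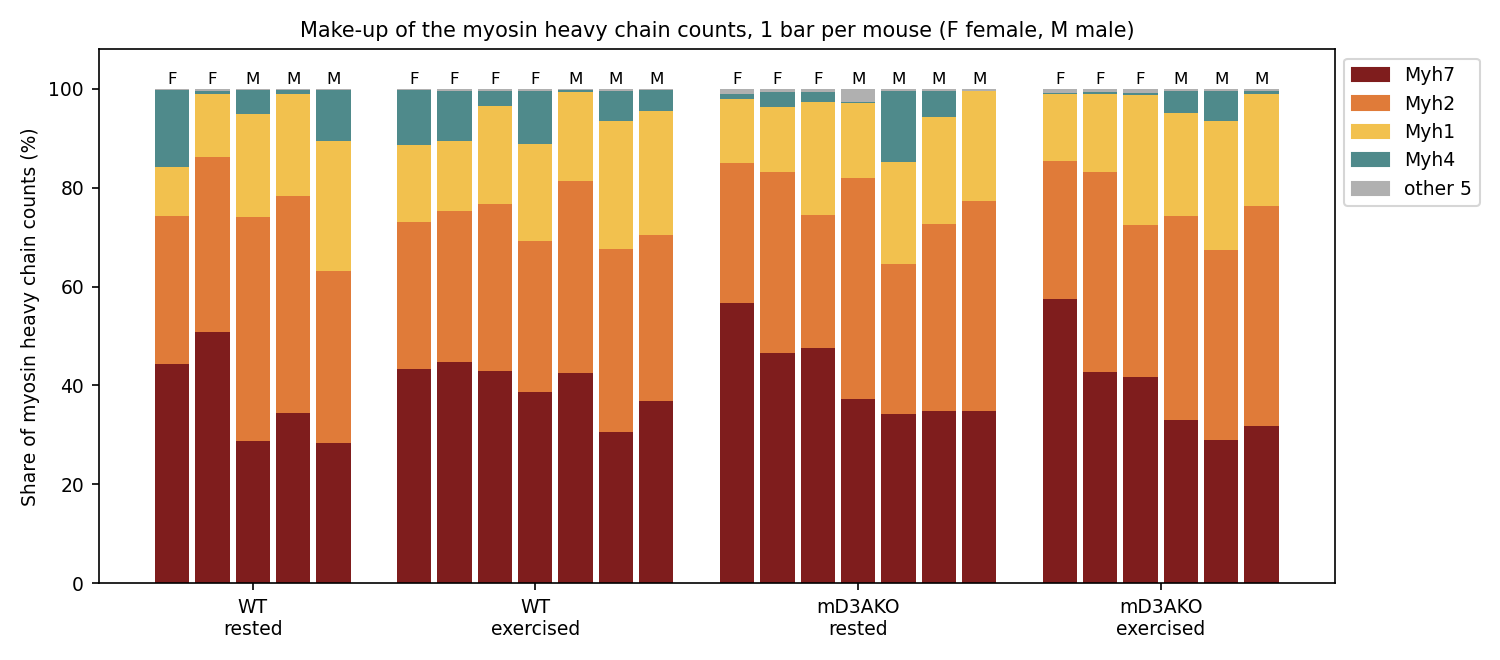
Share in percent of each mouse's counts on the 9 genes taken by *Myh7*, *Myh2*, *Myh1*, *Myh4* and the other 5 genes together, 1 stacked bar per mouse, ordered by group and sex. The *Myh7* segment is the largest in all 12 females and in 3 of 13 males, and *Myh4* runs from 0.0686% to 15.5% between mice.

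*Myh4*, the fastest adult chain, varied more than any other adult chain, with a ratio of 278 between its highest and lowest mouse. Rested WT mice were at 119, 235, 1415, 3107 and 5208 CPM, and rested mD3AKO mice ran from 18.7 to 4423 CPM with a median of 612. Exercised WT mice ran from 118 to 3487 CPM (median 2030) and exercised mD3AKO mice from 43.5 to 2145 CPM (median 137). Every group thus held both low and high mice, and the groups overlapped. The genotype log2 fold change of *Myh4* was -1.21 ± 0.75, with a wide 95% interval from -2.78 to 0.35. The share of *Myh4* was 6.49% ± 5.01 in WT and 2.95% ± 4.10 in mD3AKO muscle, a difference of -3.59 percentage points with a permutation p of 0.0738 (adjusted 0.369). Split by sex, the 6 mD3AKO females were at 43.5 to 739 CPM and the 6 WT females at 119 to 5208 CPM, with 5 of the 6 WT females above every mD3AKO female. Males overlapped fully, at 18.7 to 4423 CPM (n = 7) in mD3AKO and 118 to 3107 CPM (n = 6) in WT mice. The genotype effect in males minus that in females, a contrast added after these values were seen, was 3.66 ± 1.43 on the log2 scale. It rested in part on mouse 1, a rested WT female, without which it was 1.42 ± 1.39. It did not pass in edgeR (adjusted p = 1.00), nor did the log2 fold change in females alone, -3.61 ± 0.68 (edgeR adjusted p = 0.159).

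The level of *Myh4* went with other genes of the fastest fibers. Over the 25 libraries the 5 genes most like it by Pearson correlation of log2 CPM were *Pvalb*, a calcium buffer of fast fibers (r = 0.90), *Mybpc2*, the fast myosin-binding protein C (0.89), *Actn3*, the fast Z-disc actinin (0.88), *Tpbgl* (0.85) and *Aldoa*, a glycolytic aldolase (0.81). For *Myh7* they were the slow troponin T gene *Tnnt1* (0.86), *Amotl1* (0.85), the slow calcium pump *Atp2a2* (0.85), *Cp* (0.85) and *Sesn1* (0.83), and for *Myh2* they were *Evc2* (0.79), *Evc* (0.78), *Wfs1* (0.76), *Fam160b2* (0.76) and *Parvb* (0.75). These describe 25 libraries that differ also in sex, state and depth.

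*Myh3*, the embryonic chain, was between 20.6 and 72.7 CPM in 24 libraries and at 506 CPM in mouse 7, a rested mD3AKO male. Rested WT mice had 22.6, 25.1, 41.4, 42.1 and 72.7 CPM, and the medians of the other groups were 44.1 (rested mD3AKO), 38.9 (exercised WT) and 37.1 CPM (exercised mD3AKO). Apart from that mouse the groups overlapped. With it the genotype log2 fold change was 0.70 ± 0.41 (edgeR adjusted p = 0.910), and without it -0.04 ± 0.21. DESeq2, which by its default replaces an outlying count in groups as large as this, gave -0.04 ± 0.21.

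Mouse 7 stood apart for some other genes of forming fibers as well. Only those that stood apart are named, and the values of the other such genes in this mouse are not given here. *Myl4*, the embryonic light chain, was at 65.3 CPM there against at most 13.3 elsewhere, *Mymk*, the fusion protein myomaker, at 2.88 against 0.719, and *Chrng*, the fetal subunit of the acetylcholine receptor, at 1.61 against 0.452. Its 5 fibroblast markers summed to 4301 CPM, above the 850 to 2637 CPM of the other 24 libraries. Its 5 immune markers summed to 90.9 CPM, the highest of the series but barely above the 17.9 to 89.0 CPM of the other 24. *Myh8* was at 116 CPM in mouse 7, the highest of the mD3AKO males, and without this mouse its genotype log2 fold change was 3.37 ± 0.34. The part of these cell types in the values of mouse 7 was not tested.

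*Myh6*, *Myh7b* and *Myh13* were low in all mice, and edgeR called none of them for genotype. *Myh6* lay between 7.17 and 14.8 CPM, *Myh13* between 6.71 and 17.3 CPM and *Myh7b* between 19.9 and 43.8 CPM, with genotype log2 fold changes of 0.00 ± 0.09, 0.03 ± 0.13 and -0.05 ± 0.09. Reads can be shared between near copies: of the 75-base words in the transcripts of *Myh6*, 13.7% also occur in *Myh7*, the far more abundant gene, and of those of *Myh1* and *Myh2* 15.8% and 13.9% occur in another member. For *Myh8* this share was 6.63%, for *Myh4* 9.68%, for *Myh13* 5.01%, for *Myh3* 1.84% and for *Myh7b* 0%. Low counts of *Myh6* next to *Myh7* are therefore uncertain, and so is the split between *Myh1* and *Myh2*. Antisense genes overlap *Myh2* (*9430073C21Rik*), *Myh1* (*Myhas*) and *Myh7* (*Mhrt*), and whether counting kept the strands apart is not stated.

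None of the 9 sarcomeric myosin heavy chains passed the test for exercise. Of the 9 members edgeR called 0 for exercise, against 10.4% of all genes, with 2 at an unadjusted p under 0.05 and 0 called by DESeq2. Those 2 were *Myh6*, which went from 8.76 ± 0.584 to 12.1 ± 1.24 CPM in WT and from 10.0 ± 2.64 to 10.5 ± 1.71 CPM in mD3AKO mice (log2 fold change over both genotypes 0.26 ± 0.09, edgeR adjusted p = 0.0785), and *Myh7b* (0.20 ± 0.09, adjusted p = 0.194). The call of *Myh6* turned on single libraries: it passed in edgeR without mouse 2 (adjusted p = 0.00901) or mouse 24 (adjusted p = 0.0499), both rested mD3AKO, and in males alone (adjusted p = 0.0424). *Myh3* had a log2 fold change of -0.83 ± 0.41 (adjusted p = 0.247), and -0.08 ± 0.21 without mouse 7, and *Myh8* one of -0.13 ± 0.30. Within WT mice edgeR called 0 of 9 (3.59% of all genes; 2 members at an unadjusted p under 0.05, and DESeq2 called *Myh6*), and within mD3AKO mice 0 of 9 (6.02% of all genes; 1 member unadjusted and 0 by DESeq2). No share passed the test for exercise either, with adjusted permutation p of 0.984 for each of the 5 chains.

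A difference in exercise response between the genotypes was not detectable for any member. For the interaction edgeR called 0 of the 9 members and 0% of all genes, with 1 member at an unadjusted p under 0.05 (*Myh6*, -0.40 ± 0.19) and 0 by DESeq2. The interaction of *Myh8* was 0.14 ± 0.60 on the log2 scale. The median log2 fold change over the 9 members was 0.03 for genotype and 0.03 for exercise, against 0.01 and 0.00 over all genes.

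**Figure D4:**
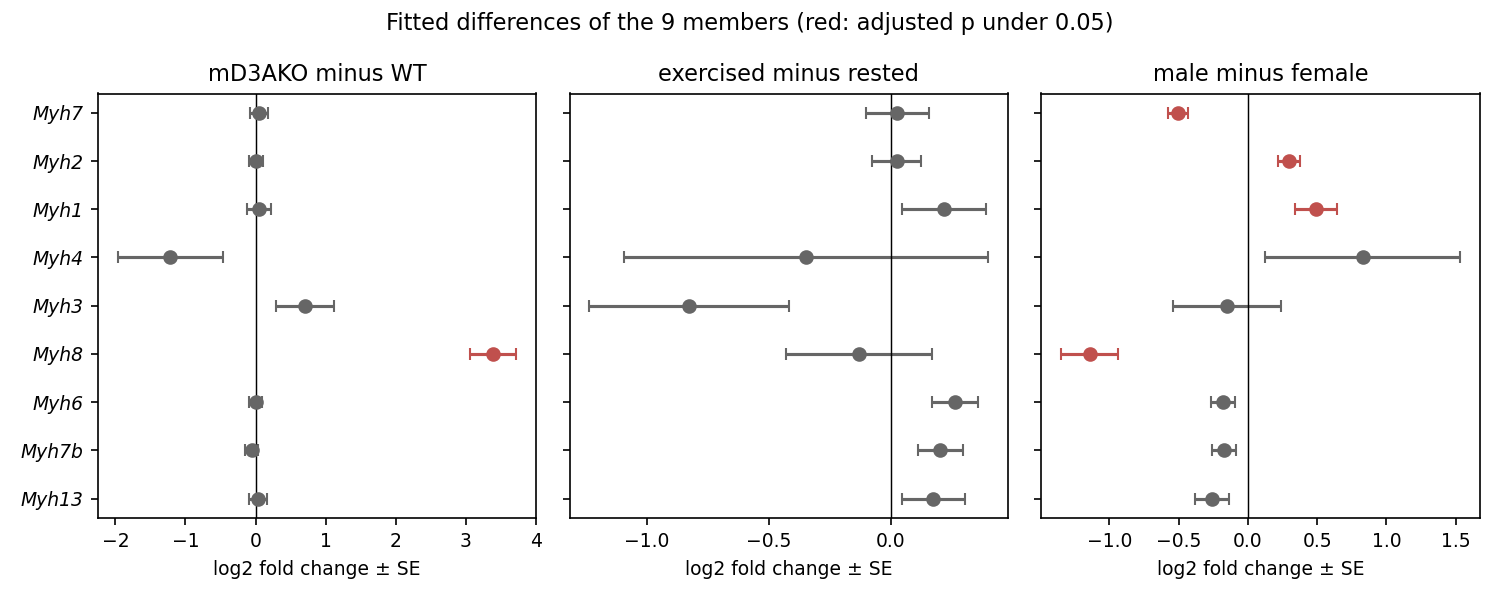
Fitted log2 fold changes with standard errors of the 9 genes for genotype (left), exercise (middle) and sex (right), each with its own axis, in red where the edgeR adjusted p is under 0.05. Red points are *Myh8* for genotype (3.39), none for exercise, and *Myh7* (-0.51), *Myh2* (0.30), *Myh1* (0.49) and *Myh8* (-1.14) for sex.

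Males had less of the slow chain *Myh7* and of *Myh8* and more of the fast chains *Myh2* and *Myh1*, and these 4 of 9 members were called against 8.65% of all genes (5.04% higher and 3.6% lower in males); DESeq2 called 4 as well. *Myh7* was at 8498 to 11776 CPM in the 13 males (median 9984) and at 11475 to 20180 CPM in the 12 females (median 13594), so that the sexes barely overlapped. The male minus female log2 fold change was -0.51 ± 0.08 (edgeR adjusted p = 0.000173). *Myh2* went the other way, at 9237 to 13790 CPM (median 11676) in males and 6882 to 12707 CPM (median 9416) in females, with 0.30 ± 0.08 (edgeR adjusted p = 0.0247). *Myh1* was at 3627 to 8954 CPM (median 6604) in males and 3232 to 8043 CPM (median 4731) in females, with 0.49 ± 0.15 (edgeR adjusted p = 0.0478). Both of these fast chains overlapped widely between the sexes. *Myh1* stayed called in only 5 of the 25 fits that each left out 1 library, and not with sex as a single added term (adjusted p = 0.0591), while *Myh2* stayed called in 20 of 25.

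In shares, *Myh7* made up 46.5% ± 5.80 of myosin heavy chain counts in females (SD, n = 12) and 33.6% ± 4.00 in males (n = 13), and *Myh2* 31.7% ± 4.02 and 39.5% ± 4.72. Accordingly the most counted chain was *Myh7* in 12 of 12 females, and in males *Myh2* in 10 and *Myh7* in 3. Per kilobase of exon the most abundant chain was *Myh2* in 13 of 13 males, and *Myh7* in 11 of 12 females.

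*Myh8* was higher in females within each genotype. WT females had 11.4 ± 3.46 CPM (SD, n = 6) and WT males 6.13 ± 1.64 (n = 6), while mD3AKO females had 137 ± 49.3 (n = 6) and mD3AKO males 55.4 ± 28.9 CPM (n = 7). The log2 fold change of males over females was -1.14 ± 0.21 (edgeR adjusted p = 0.00127). Of the 5 satellite cell markers 2 were also lower in males, *Chodl* (-0.39 ± 0.10) and *Pax7* (-0.31 ± 0.08), against 3.6% of all genes. The part of these markers in the sex difference of *Myh8* was not tested. The mean of mD3AKO mice was 12.0 times that of WT mice in females and 9.04 times in males. The difference of the genotype effect between the sexes was -0.37 ± 0.41 on the log2 scale (edgeR adjusted p = 1.00). Leaving out 1 library gave values from -0.64 (without mouse 7) to -0.12 (without mouse 2), and mice 1, 16 and 20 each also moved it by over 1.5 times. For this contrast, added after seeing the data, edgeR called 0 of 9 members and 0% of all genes, with 1 member (*Myh4*) at an unadjusted p under 0.05 and 0 by DESeq2.

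*Myh4* (0.83 ± 0.70), *Myh3* (-0.15 ± 0.39), *Myh6* (-0.18 ± 0.08), *Myh7b* (-0.17 ± 0.09) and *Myh13* (-0.26 ± 0.12) were not called for sex. The value of *Myh4* was 1.95 ± 0.83 without mouse 1 and 0.47 ± 0.68 without mouse 8. Without mouse 7, *Myh3* was, at -0.80 ± 0.14 (edgeR adjusted p = 0.000962). In the chromosome 11 cluster the long non-coding gene *2310065F04Rik*, which lies between *Myh3* and *Myh2*, was higher in males by 1.01 ± 0.18 on the log2 scale (edgeR adjusted p = 0.0015), the only one of the 6 other tested genes there that was called for sex.

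Of 11 genes of slow fibers (troponins, calcium handling, light chains), 7 were lower in males, among them the calcium store protein *Casq2* (-0.47 ± 0.07), the slow troponin I *Tnni1* (-0.40 ± 0.07), the slow troponin C *Tnnc1* (-0.38 ± 0.08) and *Tnnt1* (-0.37 ± 0.07), and 1, the oxygen carrier *Mb*, was higher (0.26 ± 0.07). Of 11 genes of fast fibers, 5 were higher and 0 lower in males, the largest changes being those of the fast light chain *Myl1* (0.58 ± 0.09), *Myoz1* of the Z-disc (0.44 ± 0.10), the fast troponin I *Tnni2* (0.41 ± 0.08) and the fast troponin T *Tnnt3* (0.35 ± 0.08). The median log2 fold change was -0.25 over the slow genes and 0.30 over the fast genes, against -0.02 over all genes. Of 25 regulators of fiber type 2 were higher in males, 2 were lower and 21 were not called. Of all tested genes 5.04% were higher and 3.6% lower in males, so the few calls among the regulators are not read as a pattern. The lower ones were *Prox1*, a regulator of slow fibers (-0.55 ± 0.07), and *Nfatc3* (-0.15 ± 0.04), and *Tbx15*, which is known from glycolytic fibers (0.26 ± 0.06), was among the higher.

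**Figure D5:**
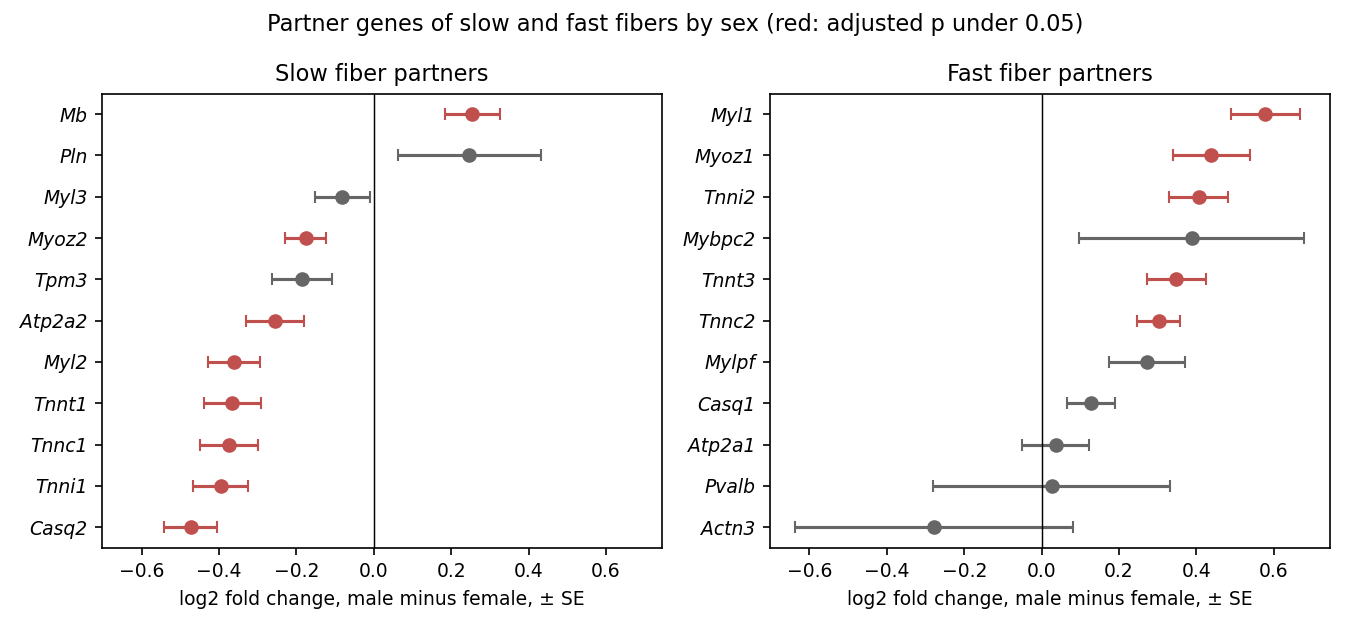
Male minus female log2 fold changes with standard errors for 11 genes of slow fibers (left) and 11 of fast fibers (right), in red where the edgeR adjusted p is under 0.05. Of the slow genes 7 are red on the female side and 1, *Mb*, on the male side, and of the fast genes 5 are red, all on the male side.

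The counts in the other lists stand against 5.04% of all genes higher and 3.6% lower in males. Of 8 tested light chains 1 was higher, *Myl1*, which is also counted among the fast genes above. Another 1 was lower in males (*Myl2*, the slow regulatory light chain, -0.36 ± 0.07), and of 11 thick filament partners 1, *Obsl1*, was lower (-0.31 ± 0.05). Of 10 tested genes of developing fibers the cardiac actin *Actc1* was higher in males (0.59 ± 0.12), and *Ncam1* (-0.37 ± 0.08) and the acetylcholine receptor subunit *Chrna1* (-0.34 ± 0.09) were lower. Of the 5 other class II heavy chains *Myh15* was lower (-0.65 ± 0.16), at 0.809 CPM on average.

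For genotype, edgeR called 0 of 8 light chains, 0 of 11 thick filament partners, 0 of 11 slow and 0 of 11 fast genes, and DESeq2 called 0 in each, with 1 gene of these (a thick filament partner) at an unadjusted p under 0.05. Their most abundant members had log2 fold changes of -0.06 ± 0.10 (*Myl2*), 0.04 ± 0.15 (*Ttn*, the giant filament protein titin), 0.01 ± 0.09 (*Mb*) and -0.07 ± 0.10 (*Tnnt3*). Of 10 genes of developing fibers edgeR called 0, with 3 at an unadjusted p under 0.05, and DESeq2 called 2, *Myog*, the myogenic factor myogenin (0.96, adjusted p = 0.00794), and *Chrna1* (0.44, adjusted p = 0.0282). *Myog* was at 7.81 ± 3.12 CPM in WT and 15.6 ± 9.42 CPM in mD3AKO mice, with overlap (edgeR adjusted p = 0.0543), and *Chrna1* at 48.6 ± 9.44 and 65.5 ± 15.0 CPM (edgeR adjusted p = 0.122). The median log2 fold change of this list was 0.40, against 0.01 over all genes. That median includes mouse 7, which stood apart for *Myl4*, *Mymk* and *Chrng*, and was not recomputed without it.

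The other genotype calls of edgeR in the lists were *Eya4*, a transcriptional cofactor of myogenic genes, which rose in mD3AKO muscle from 11.0 ± 1.05 to 15.7 ± 1.29 CPM (0.51 ± 0.06, edgeR adjusted p = 3.6e-06; 1 of 25 fiber type regulators), and *Pax7*, the satellite cell factor, from 3.83 ± 1.17 to 5.52 ± 1.05 CPM (0.48 ± 0.11, edgeR adjusted p = 0.0384; 1 of 5 satellite cell markers). DESeq2 called both, and also the fiber type regulator *Thra*, a thyroid hormone receptor, as lower (-0.18, adjusted p = 0.0126), which edgeR did not (adjusted p = 0.0780). The 5 satellite cell markers summed to 43.3 to 57.9 CPM in WT and 39.6 to 60.3 CPM in mD3AKO mice, all 5 being detected, and their part in the level of *Myh8* was not tested. Of 12 genes of myosin assembly and turnover and of 5 other class II heavy chains edgeR and DESeq2 called 0 for genotype, with 1 and 0 at an unadjusted p under 0.05; *Hsp90ab1* was at -0.04 ± 0.05 and the non-muscle chain *Myh9* at 0.10 ± 0.09.

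Of the 12 genes of myosin assembly and turnover 5 rose after the run, 0 fell and 7 were not called (5.7% of all genes rose and 4.69% fell): the chaperone *Hsp90aa1* went from 48.9 ± 7.37 to 100.6 ± 52.5 CPM (SD, n = 12 and 13; 1.04 ± 0.17, edgeR adjusted p = 6.7e-05), and *Trim63*, a ubiquitin ligase of the thick filament, from 157 ± 20.7 to 257 ± 44.7 CPM (0.72 ± 0.09, edgeR adjusted p = 2.2e-06). The chaperone gene *Unc45a* rose by 0.33 ± 0.04, the cochaperone *Stip1* by 0.24 ± 0.05 and *Ahsa1* by 0.21 ± 0.05. Of 25 regulators of fiber type 5 rose, 2 fell and 18 were not called. Rises included those of *Ppargc1a*, the coactivator of oxidative metabolism (37.7 ± 6.83 to 79.7 ± 19.6 CPM, 1.10 ± 0.12), *Rcan1*, a calcineurin target (0.74 ± 0.19), and *Maf* (0.47 ± 0.09). *Thra* fell by 0.15 ± 0.04 on the log2 scale. Of the other class II heavy chains *Myh9* rose (0.31 ± 0.09), and of the light chains, thick filament partners, slow, fast and developing genes 0 were called by edgeR or DESeq2, with 0, 1, 0, 0 and 1 at an unadjusted p under 0.05. In the interaction edgeR and DESeq2 called 0 genes of any list.

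Some markers of other cells were called for exercise: of 5 endothelial markers 2 fell (*Kdr*, -0.58 ± 0.07, and *Cdh5*, -0.23 ± 0.06), of 5 smooth muscle markers 2 rose (*Actg2*, 0.74 ± 0.21, and *Cnn1*, 0.38 ± 0.11), and of 5 satellite cell markers 2 fell (*Myf5*, -0.46 ± 0.09, and *Pax7*, -0.45 ± 0.10). In each of these lists the other 3 were not called, and of all tested genes 5.7% rose and 4.69% fell. The sums of the endothelial markers ran from 355 to 491 CPM at rest and from 309 to 410 CPM after exercise. Fibroblast, immune, adipocyte, Schwann cell and heart markers held 0 edgeR calls for genotype, exercise or sex, whereas DESeq2 called 1 fibroblast marker for exercise and 2 Schwann cell markers for sex. Their part in the results was not tested.

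By likeness over the 25 libraries, *Myh8* lay closest to *Gm44289* (r = 0.91), *Gm31520* (0.91), *1600002K03Rik* (0.87), *Mttp*, a lipid transfer protein (0.85), and *H19*, an imprinted non-coding RNA (0.83). Over deviations from the group means, which leave out the difference between genotypes, the closest were *Scn3b* (0.86), *Tubgcp5* (0.85), *Obsl1* (0.85), *Tnni1* (0.82) and *Riok1* (0.82), and *Myh7* stood at 0.69. Of these, *Tnni1* and *Obsl1* belong to the lists above and were, like *Myh8*, lower in males.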

How the data were processed

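*Soleus* RNA of 25 mice was depleted of ribosomal RNA and sequenced as stranded paired-end libraries. The deposited values are raw counts per gene, which the authors made on mm10 with GENCODE M15 annotation. The submitters' processing notes name FastQC 0.11.5, STAR 2.5.3a and featureCounts 1.5.3, and the settings for strand and for reads with several matches are not given in the sources used here. The members and the gene lists were chosen with earlier results of these data known.

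Counts were fitted in edgeR 4.0.16 (limma 3.58.1, R 4.3.3) with TMM scaling, the 4 groups as terms and its quasi-likelihood test, after a filter at a minimum count of 10 and total of 15. Adjusted p-values are Benjamini-Hochberg values over all tested genes with a threshold of 0.05. Sex effects came from a model of the 8 groups of genotype, exercise and sex, with equal weight for each group. Rested WT mice were 3 males and 2 females, and rested mD3AKO mice 4 males and 3 females. Exercised WT mice were 3 males and 4 females, and exercised mD3AKO mice 3 males and 3 females. Share differences were tested by 2-sided permutation. DESeq2 1.42.0, other scalings and filters, sex terms, single sexes and leaving out each library were alternatives. The test scripts were tested on simulated data. Of 52636 gene identifiers 52403 matched a symbol. Named like genes are the 5 with the highest Pearson correlation. Some genes of the fiber type regulator list are not reported here.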

Additional observations from a re-analysis of the deposited data

Results flagged for a closer look

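Of 36 sets of values (9 genes in 4 groups), 3 held a sample far from the others of its group on the CPM scale. Chance gives about 1 in 20 for normally distributed values, which was not checked here, and no log scale was used. *Myh3* was at 506 CPM in mouse 7 among rested mD3AKO mice, with the nearest at 58.5 CPM, a gap of 0.922 of the group's range. *Myh4* was at 4423 CPM in mouse 8 of the same group, with the nearest at 1647 CPM, a gap of 0.630 of the range. *Myh13* was at 13.7 CPM in mouse 20 among rested WT mice, with the nearest at 9.23 CPM, a gap of 0.825 of the range.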

How the results depend on the processing

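The genotype call of *Myh8* held in each fit that left out 1 library (3.21 to 3.58) and in each sex alone. No paired analysis was possible because mouse numbers are not shared between groups. Over all genes the genotype calls numbered 44, and 81 with DESeq2 and 29 with no normalization. In males alone the genotype log2 fold change was -0.0767 for *Myh1* and 0.0566 for *Myh4*, the interaction of *Myh8* was -0.23, exercise called 1 member, and the genotype share differences were -0.311 (*Myh7*) and -1.27 points (*Myh1*). In females alone genotype gave -0.0527 (*Myh2*) and -0.00449 (*Myh3*), and shares gave -0.0443 (*Myh2*, genotype), -4.10 (*Myh7*, exercise), 0.526 (*Myh2*, exercise) and 0.00478 points (*Myh8*, exercise). *Myh2* was at -0.0395 for genotype with no normalization and -0.00275 with sex added, *Myh3* at -0.0441 with DESeq2, which also called 1 member for exercise in WT mice, and the exercise share of *Myh7* per kilobase at -0.0248 points. The cause was not tested. Leaving out each library gave, for genotype, -0.0136 to 0.14 (*Myh1*), -0.0210 to 0.0648 (*Myh2*), -0.04 to 0.86 (*Myh3*) and -0.0379 to 0.11 (*Myh7*). For *Myh8* it gave -0.22 to 0.0561 for exercise and -0.23 to 0.51 for the interaction. Members called ran from 0 to 1 for exercise, 0 to 1 for exercise in WT mice and 2 to 5 for sex. Share differences in points ran from -0.312 to 1.74 (*Myh1*) and -0.373 to 1.56 (*Myh2*) for genotype, and from -1.49 to 0.403 (*Myh4*), -1.74 to 1.75 (*Myh7*) and -0.0324 to 0.0199 (*Myh8*) for exercise. *Myh6* was called for exercise without mouse 2 (adjusted p = 0.00901) and without mouse 24 (adjusted p = 0.0499) by edgeR.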
